A study of Mus musculus with 3 samples.

Results

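The genes described here are 9 mouse genes of the smooth muscle contractile apparatus, out of 39179 genes in the deposited table: Acta2, Actg2, Tagln, Cnn1, Cald1, Smtn, Synpo2, Mylk and Myocd. They were chosen by symbol as smooth muscle genes other than the myosin heavy chain gene Myh11, with their behaviour in these data already known. RNA was sequenced from 3 populations sorted from 1 mouse embryonic stem cell line, which carries an eGFP reporter for Cntn2 (contactin 2, a marker of cardiac Purkinje fibres) and, from a lentivirus, mCherry under the αMHC promoter (Myh6, cardiac alpha myosin heavy chain). All cells had been differentiated in culture, given the nitric oxide donor sodium nitroprusside at day 4 and sorted at day 25. The populations were eGFP-positive cells with dim mCherry (GFP), mCherry-positive cells (MHC) and cells with neither reporter (NEG), so none is an untreated control. Each population had 1 library, and 52109065 reads were recovered for GFP, 52826956 for MHC and 47289405 for NEG. Without replicates the differences are differences between these libraries, and no p-values are printed.

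Smooth muscle contracts when calcium signalling activates myosin light chain kinase, which phosphorylates the regulatory light chain of myosin and lets it pull on actin. Calponin, caldesmon, transgelin and smoothelin bind the actin filaments. Many of these genes carry CArG boxes, the binding element of serum response factor (SRF), and myocardin is the cofactor that drives SRF on them in smooth and heart muscle. Several of them are also active outside mature smooth muscle: Acta2 and Tagln are expressed in early heart muscle and in myofibroblasts, and Mylk and Cald1 also encode non-muscle isoforms.

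The 9 genes split into those that were far lower in GFP than in the other populations and those that were not. Acta2, Actg2, Tagln, Cnn1 and Myocd were all at least 2-fold lower in GFP than in both MHC and NEG. Mylk was at least 2-fold higher in GFP than in both. Smtn, Cald1 and Synpo2 lay within 2-fold in each of these comparisons, so it was not Mylk alone that parted from the lower genes. In bulk RNA, fewer cells of a type and less RNA per cell cannot be told apart.

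The promoters are shown for Acta2 and Cnn1, which were low in GFP, and for Mylk, which was high there. RefSeq promoters (GRCm38.p6) were matched by symbol for 6 of the 9 genes, with 7 entries, and the 250 bases before each start were searched on both strands. Capitals mark matches to a CArG box (CC, a core of 6 A or T letters, GG) with 1 core letter other than A or T allowed, to the MCAT element CATTCC (bound by TEAD factors) and to the TATA box TATAAA. The Acta2 window is chr19:34255374-34255623 on the minus strand, the Cnn1 window chr9:22099003-22099252 on the plus strand and the Mylk window chr16:34784700-34784949 on the plus strand. The Mylk window lies inside the gene as the deposited table gives it, at an internal start. The Acta2 and Cnn1 windows stop short of the genes as deposited, and the bases between were not searched. Positions of matches are counted from the RefSeq start.
Acta2: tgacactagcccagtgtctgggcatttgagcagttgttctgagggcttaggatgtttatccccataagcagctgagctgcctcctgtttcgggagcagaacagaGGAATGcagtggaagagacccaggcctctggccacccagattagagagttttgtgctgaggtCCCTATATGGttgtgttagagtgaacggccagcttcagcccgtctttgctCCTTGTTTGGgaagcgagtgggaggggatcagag
Cnn1: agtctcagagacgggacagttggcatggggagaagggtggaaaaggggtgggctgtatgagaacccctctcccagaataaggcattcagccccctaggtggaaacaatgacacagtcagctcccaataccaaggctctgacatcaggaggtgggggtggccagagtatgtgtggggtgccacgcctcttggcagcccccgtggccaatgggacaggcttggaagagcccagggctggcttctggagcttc
Mylk: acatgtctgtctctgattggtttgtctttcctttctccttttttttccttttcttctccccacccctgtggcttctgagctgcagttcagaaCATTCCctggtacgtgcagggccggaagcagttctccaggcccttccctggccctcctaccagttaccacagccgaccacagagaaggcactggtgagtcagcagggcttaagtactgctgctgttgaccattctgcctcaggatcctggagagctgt

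In these windows the Acta2 promoter held 2 CArG boxes with 1 exception each, CCCTATATGG, whose first base lies 84 bases before the start, and CCTTGTTTGG, at 34 bases. A box of this relaxed kind stood in 8.59% of all 32851 promoter windows of the same length, and a strict CArG box in 1.47%. None of the 7 windows of the 9 genes held a strict CArG box, and Acta2 was the only gene of the 6 with a relaxed one, which says only that these letters are absent from the other windows. The MCAT element was found in Acta2, Mylk, Smtn and the first of 2 windows of Cald1, against 12.6% of all windows. The TATA box was found in Synpo2 and the second Cald1 window, against 12.4% of all windows. The strict box is a special case of the relaxed box, and the other matches do not overlap in the printed windows. A match is a description of letters and not a measured site.

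Both smooth muscle actins were far lower in GFP than in the other populations. Acta2 (ENSMUSG00000035783, chr19:34241090-34255336, mm10, protein-coding), the actin of vascular smooth muscle, had a size-factor-normalised read count of 2363 in GFP, against 40276 in MHC and 38419 in NEG. It was 17.0-fold lower in GFP than in MHC (95% interval 16.4 to 17.7) and 16.3-fold lower than in NEG (95% interval 15.6 to 16.9). These intervals, and all below, cover counting error in the recovered reads only. Actg2 (ENSMUSG00000059430, chr6:83512905-83536265, protein-coding), the actin of visceral smooth muscle, had a normalised count of 41.1 in GFP, from 45 reads, against 559 in MHC and 1014 in NEG. It was 13.6-fold lower in GFP than in MHC (95% interval 10.02 to 18.9) and 24.7-fold lower than in NEG (95% interval 18.3 to 34.1). GFP was thus the low population for both actins, while MHC and NEG differed little for Acta2 and by 1.81-fold for Actg2, lower in MHC.

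The low smooth muscle actins in GFP were not part of a low actin level in general. Among reads of the 6 actin genes, Acta2 took 1.65% in GFP, against 23.3% in MHC and 22.4% in NEG. Actg2 took 0.0288% in GFP, against 0.323% in MHC and 0.591% in NEG. The cytoskeletal actin genes Actb and Actg1 together with the muscle actin genes Acta1 and Actc1 made up the rest. Actb had a normalised count of 65451 in GFP, against 47013 in MHC and 55562 in NEG, and Actg1 had 72014, 75580 and 74581, so each was within 2-fold. Actc1, the cardiac actin gene, was 5.29-fold lower in GFP than in MHC and 2.93-fold higher than in NEG, and shares reads with an overlapping gene. Shares within a library do not depend on the scaling between libraries. Coding sequences of the actins are alike, yet 7 of the 2146 words of 50 bases, the read length, in Acta2 transcripts occurred in a transcript of another gene, and none of 1592 in Actg2 did.

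**Figure D1:**
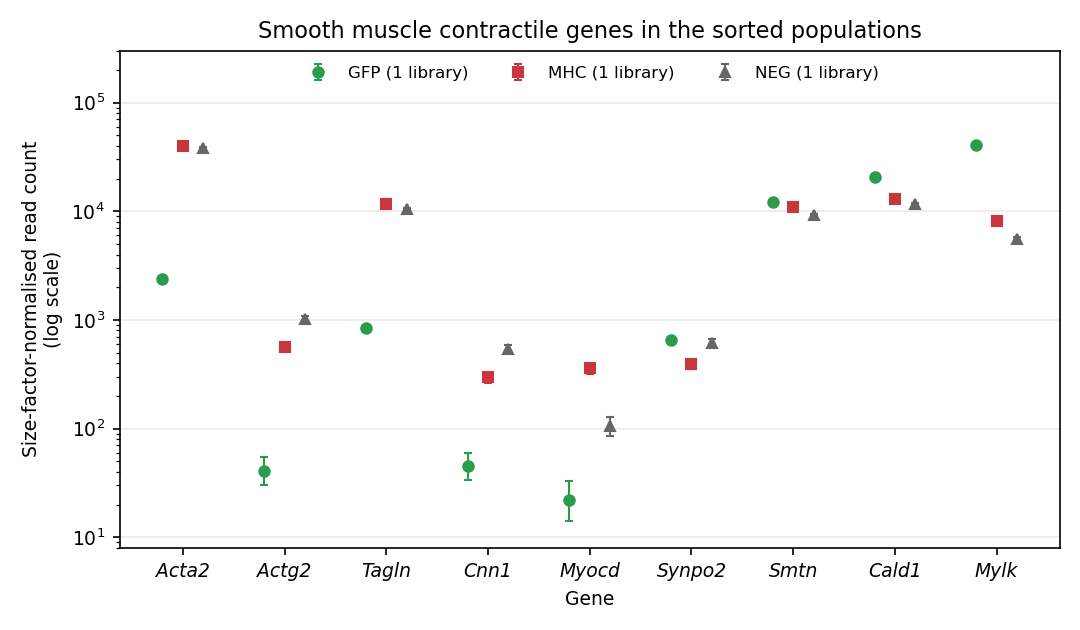
Size-factor-normalised read counts (log scale) of the 9 genes in GFP (circles), MHC (squares) and NEG (triangles), 1 library each, with exact 95% Poisson intervals that cover counting error only. Acta2, Actg2, Tagln, Cnn1 and Myocd are lowest in GFP, and Mylk is highest there, at 40839.

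The actin-binding proteins were divided. Tagln (ENSMUSG00000032085, chr9:45929628-45936058, protein-coding), encoding transgelin, an early marker of smooth muscle, had a normalised count of 844 in GFP, against 11639 in MHC and 10501 in NEG. It was 13.8-fold lower in GFP than in MHC (95% interval 12.9 to 14.8) and 12.4-fold lower than in NEG (95% interval 11.6 to 13.3). Cnn1 (ENSMUSG00000001349, chr9:22099281-22109630, protein-coding), encoding calponin 1, an inhibitor of the myosin ATPase, had a normalised count of 45.7 in GFP, from 50 reads, against 299 in MHC and 543 in NEG. It was 6.54-fold lower in GFP than in MHC (95% interval 4.83 to 9.01) and 11.9-fold lower than in NEG (95% interval 8.87 to 16.2). The GFP values of both genes stood well below those of MHC and NEG. Tagln touches Pcsk7 on the opposite strand over 65 bases in the table, and the count of Pcsk7 was 928 in GFP, against 808 in MHC and 949 in NEG, which is 110% of the Tagln count in GFP but 6.94% in MHC and 9.04% in NEG. The counts do not separate reads in the stretch they share.

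Caldesmon, smoothelin and synaptopodin 2 were not lower in GFP. Cald1 (ENSMUSG00000029761, chr6:34598500-34775473, protein-coding), whose caldesmon restrains the myosin ATPase on actin filaments, had a normalised count of 20704 in GFP, against 12897 in MHC and 11766 in NEG. It was 1.61-fold higher in GFP than in MHC (95% interval 1.57 to 1.64) and 1.76-fold higher than in NEG (95% interval 1.72 to 1.80), short of 2-fold in each case. Smtn (ENSMUSG00000020439, chr11:3517523-3540612, protein-coding), whose smoothelin associates with actin filaments of contractile cells, had a normalised count of 12270.4 in GFP, against 11064 in MHC and 9149 in NEG. The Smtn value is uncertain, since Gm11946, a transcript on the opposite strand inside it, had a count of 30.8% of that of Smtn in GFP, against 27.6% in MHC and 27.2% in NEG, and the counts do not separate them. Synpo2 (ENSMUSG00000050315, chr3:123076519-123236149, protein-coding), encoding an actin-bundling protein of muscle Z-discs and smooth muscle, had a normalised count of 654 in GFP, against 393 in MHC and 611 in NEG. It was 1.66-fold higher in GFP than in MHC (95% interval 1.47 to 1.89) and 1.07-fold its NEG level, a ratio whose 95% interval spans equality.

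The family relatives of the low actin-binding genes did not all follow them. Tagln2, the transgelin of non-muscle cells, had a normalised count of 4935 in GFP, against 5001 in MHC and 6282 in NEG. Of reads of the 3 transgelin genes, Tagln thus took 14.6% in GFP, against 69.9% in MHC and 62.6% in NEG. Cnn2, the calponin of non-muscle and smooth muscle cells, was 5.67-fold lower in GFP than in MHC and 3.69-fold lower than in NEG, as Cnn1 was lower. Cnn3, named after its values were seen, had a count of 5264 in GFP, against 5200 in MHC and 5691 in NEG. Cnn1 held 0.568% of the reads of the 3 calponin genes in GFP, against 1.42% in MHC and 3.33% in NEG.

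Mylk, the kinase that starts contraction, went the other way. Mylk (ENSMUSG00000022836, chr16:34745210-35002420, protein-coding) had a normalised count of 40839 in GFP, against 8156 in MHC and 5587 in NEG. It was 5.01-fold higher in GFP than in MHC (95% interval 4.89 to 5.13) and 7.31-fold higher than in NEG (95% interval 7.10 to 7.53). No gene of the table overlaps it, and none of its 8039 words of 50 bases occurred in a transcript of another gene. Of the related kinase genes, Mylk3, the kinase of heart muscle, had a normalised count of 732 in GFP, against 2804 in MHC and 219 in NEG, 3.83-fold lower in GFP than in MHC (95% interval 3.54 to 4.15) and 3.34-fold higher than in NEG (95% interval 2.85 to 3.93). Mylk2 was below a count of 20 in every library and Mylk4 in GFP and NEG, so neither was compared between GFP and NEG. Mylk took 98.2% of the reads of the 4 kinase genes in GFP, against 73.9% in MHC and 95.8% in NEG. The gene-level value does not separate the long non-muscle kinase, the smooth muscle kinase and telokin, which are all products of Mylk.

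**Figure D2:**
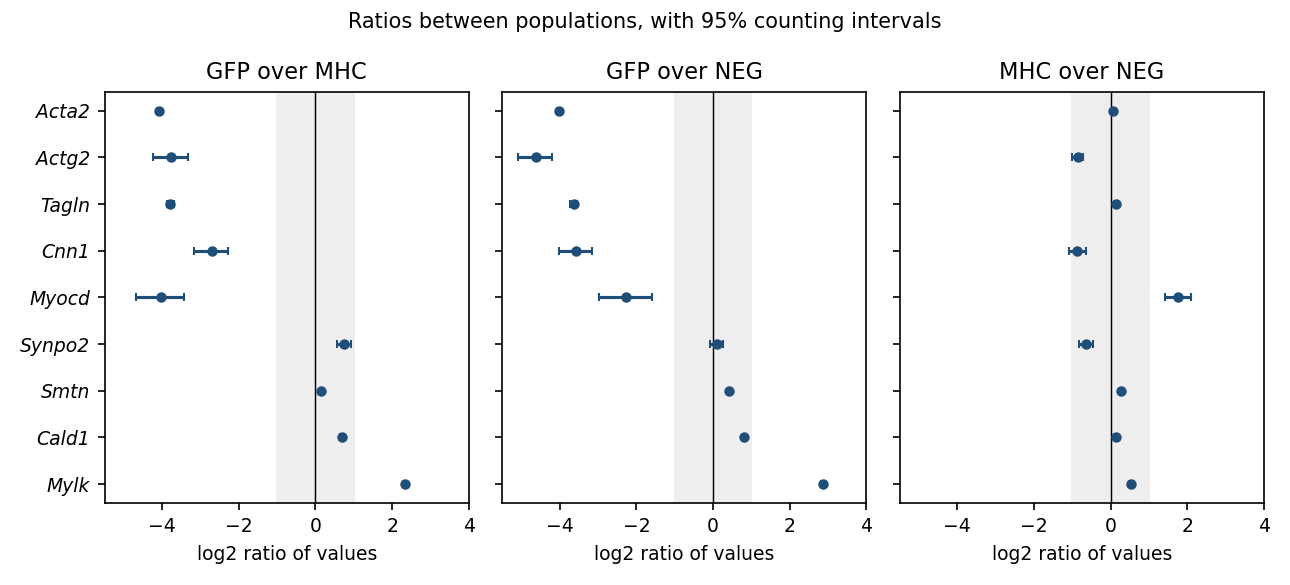
Log2 ratios of the deposited values (x axis) for each of the 9 genes (y axis) in the 3 comparisons, with exact 95% intervals that cover counting error only; the grey band marks ratios within 2-fold. In GFP over MHC and GFP over NEG, 5 genes lie left of the band and Mylk lies right of it, whereas in MHC over NEG Myocd alone lies outside.

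Myocardin was the least abundant of the 9 genes in GFP. Myocd (ENSMUSG00000020542, chr11:65176561-65269989, protein-coding) had a normalised count of 21.9 in GFP, from 24 reads, against 358 in MHC and 105 in NEG. It was 16.3-fold lower in GFP than in MHC (95% interval 10.8 to 25.8) and 4.79-fold lower than in NEG (95% interval 3.03 to 7.85). Between the populations without eGFP it was 3.40-fold higher in MHC than in NEG (95% interval 2.70 to 4.32). Myocd is also a gene of heart muscle. The 12 cardiomyocyte markers were all at least 2-fold higher in MHC than in NEG, where 5.35% of all genes were higher. Myh6 is one of the 12, and its promoter drives the mCherry used in sorting, so its difference is not independent of the sort. The summed normalised count of the 12 was 18522 in GFP, against 328616 in MHC and 10935 in NEG. Without Myh6 the sum was 13828 in GFP, against 141691 in MHC and 7092 in NEG. The part of heart muscle RNA in the Myocd difference was not tested. The other cofactors of SRF in the myocardin family, Mkl1 and Mkl2, were within 2-fold, with Mkl1 at 1760.5 in GFP, against 1108 in MHC and 1190 in NEG and Mkl2 at 1297, 1160 and 1088. Mkl1 is uncertain through its overlap with Sgsm3, and Mkl2 was named after its values were seen.

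As a group, 5 of the 9 genes were at least 2-fold lower in GFP than in MHC and 1 was higher. Of 20879 genes with a count of 20 or more in the higher library, 16.4% were lower in GFP and 15.6% higher, 31.9% in all. Their median log2 ratio was −2.68, on the scale of normalised count plus 1, beside 0.01 over all genes tested. Against NEG, 5 were lower in GFP and 1 was higher, while of 20814 genes 15.0% were lower and 14.1% higher, 29.1% in all. The median was −2.21 beside 0.02. These comparisons share the GFP library and are not independent of each other. Between MHC and NEG, Myocd was higher in MHC, none of the 9 was at least 2-fold lower and 8 were within 2-fold, while of 20572 genes 5.35% were higher and 5.21% lower in MHC, 10.6% in all. The median there was 0.13 beside −0.01. Each of the 9 genes passed the minimum count in every comparison.

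Between MHC and NEG the other 8 genes differed less. Actg2 was 1.81-fold lower in MHC than in NEG (95% interval 1.63 to 2.02) and Cnn1 1.82-fold lower (95% interval 1.57 to 2.11), so these intervals include 2-fold. Synpo2 was 1.56-fold lower in MHC (95% interval 1.36 to 1.78). Mylk was 1.46-fold higher in MHC (95% interval 1.41 to 1.51), while Acta2, Tagln, Cald1 and Smtn were 1.05-fold to 1.21-fold higher. Myh11, the smooth muscle myosin heavy chain and the most restricted marker of the lineage, had a count of 192 in GFP, against 1414 in MHC and 3989 in NEG, and was 2.82-fold lower in MHC than in NEG.

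The total over the 9 genes was close in the 3 populations. Their summed normalised count was 77782 in GFP, against 85641 in MHC and 77697 in NEG, and they held 0.163%, 0.160% and 0.145% of all reads. Acta2 supplied 3.04% of the reads of the 9 genes in GFP, against 47.0% in MHC and 49.4% in NEG. Mylk supplied 52.5% in GFP, against 9.52% in MHC and 7.19% in NEG. The share of Cald1 was 26.6% in GFP, against 15.1% in MHC and 15.1% in NEG, and that of Smtn was 15.8%, 12.9% and 11.8%. Without Acta2 the sum was 75419 in GFP, against 45365 in MHC and 39278 in NEG, so the totals were then no longer close. In the full total, the low Acta2 count in GFP (2363, against 40276 in MHC and 38419 in NEG) stood beside a high Mylk count. Mylk had 40839 in GFP, against 8156 in MHC and 5587 in NEG, and the sum without Mylk was not taken.

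**Figure D3:**
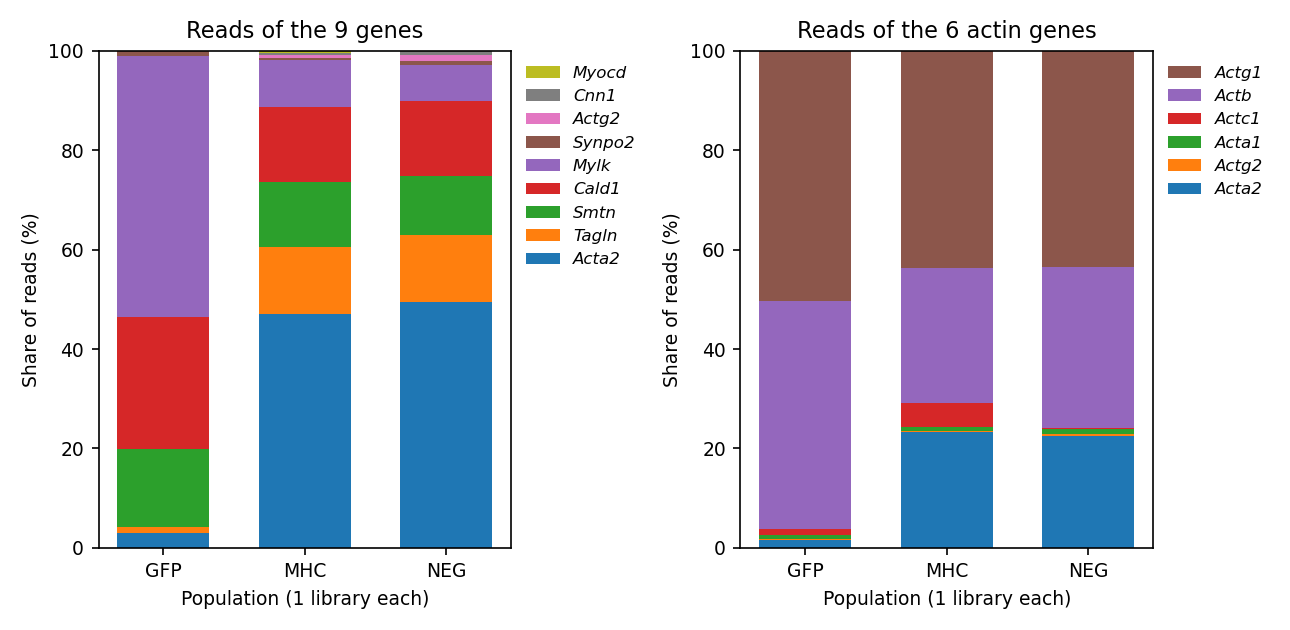
Share of reads (%) of each gene among the 9 smooth muscle contractile genes (left) and among the 6 actin genes (right) in the GFP, MHC and NEG libraries. Acta2 fills 47.0% of the left bar in MHC and 49.4% in NEG but 3.04% in GFP, where Mylk fills 52.5%.

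Levels of different genes were compared per kilobase of annotated exon. In GFP the order was Mylk (3626 per kilobase), Smtn (2801), Cald1 (1719), Acta2 (1076), Tagln (424), Synpo2 (49.9), Actg2 (26.4), Cnn1 (16.7) and Myocd (3.41). In MHC, Acta2 led at 18341 per kilobase, followed by Tagln (5855), Smtn (2526), Cald1 (1071), Mylk (724), Actg2 (359), Cnn1 (109), Myocd (55.7) and Synpo2 (30.0). In NEG the first places were again Acta2 (17495), Tagln (5282), Smtn (2089) and Cald1 (977), then came Actg2 (652), Mylk (496), Cnn1 (199), Synpo2 (46.7) and Myocd (16.4). Per kilobase of exon Mylk thus had rank 1 in GFP, rank 5 in MHC and rank 6 in NEG. All neighbours in these orders differed beyond counting error. The interval that came nearest to equality was that of Actg2 over Cnn1 in GFP, a ratio of 1.58 with a 95% interval of 1.03 to 2.41, and the smallest ratio was that of Mylk over Smtn in GFP, at 1.29 (95% interval 1.27 to 1.32). Reads from introns enter the counts, and exons make up 4.38% of the span of Mylk against 30.9% of that of Tagln, so this order depends on the choice of length. Per kilobase of the whole span Mylk had rank 3 in GFP, at 159, behind Smtn at 531 and Acta2 at 166. On that scale it had rank 5 in MHC and rank 7 in NEG.

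The genes also differ in size. The 5 that were low in GFP span 6.43 kb (Tagln) to 93.4 kb (Myocd), whereas Mylk, Cald1 and Synpo2 span 257, 177 and 160 kb and Smtn 23.1 kb. Of the 4 genes that were not lower in GFP, 3 thus span over 100 kb, while 2523 of all 39179 genes span 100 kb or more. Of the 20879 genes with a sufficient count in GFP against MHC, as the 9 genes had, 2294 span that much. Among these long genes, 402 of 2294 with a sufficient count were higher and 431 lower in GFP than in MHC (median log2 ratio 0.02). Against NEG, 386 of 2296 were higher and 406 lower (median 0.02). For genes under 100 kb the medians were 0.01 against MHC and 0.02 against NEG. The part of gene size in the differences of the 9 genes was not tested. Mylk has 2 annotated protein-coding transcripts and Cald1 has 10, with as many distinct start positions, and their gene-level counts add these up.

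Of 22 other smooth muscle contractile and cytoskeletal genes, 21 had a sufficient count, and 12 were at least 2-fold lower and 1 was higher in GFP than in MHC (median log2 ratio −1.52), where 16.4% of all genes were lower and 15.6% higher. Against NEG, 9 were lower and 1 was higher (median −0.54), where 15.0% of all genes were lower and 14.1% higher. The regulatory light chain gene Myl9, whose protein is the substrate of the kinase, had a count of 543 in GFP, against 11194 in MHC and 7736 in NEG, 20.6-fold lower in GFP than in MHC (95% interval 19.0 to 22.4). Itga8, an integrin chain of smooth muscle and mesenchyme, was 53.6-fold lower in GFP than in MHC (95% interval 43.6 to 66.6) and 40.3-fold lower than in NEG (95% interval 32.7 to 50.1). Lmod1, the leiomodin that nucleates actin filaments, was 11.4-fold and 10.9-fold lower, and Myh11 7.37-fold and 20.8-fold lower. Vcl, encoding the adhesion protein vinculin, was the higher gene, at 46604 in GFP, against 12803 in MHC and 10529 in NEG, and is uncertain because an overlapping gene shares its reads. Tpm1, a tropomyosin gene, was 2.87-fold lower in GFP than in MHC and 1.45-fold lower than in NEG, while the actin crosslinker gene Flna was within 2-fold of both.

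Mylk acts in the phosphorylation of the myosin light chain. Of 18 genes that set this step, 17 had a sufficient count in GFP against MHC, of which 1 was higher, 4 were lower and 12 lay within 2-fold, at a median log2 ratio of −0.41. Over all genes 15.6% were higher and 16.4% lower, 31.9% in all, and the 5 of 17 genes outside 2-fold here were no larger a share. The 4 lower genes were Mylk3, Mylk4, the phosphatase inhibitor gene Ppp1r14a and the phosphatase targeting subunit gene Ppp1r12a, the last chosen after its value was seen. Ppp1r14a had a count of 32.9 in GFP, against 138 in MHC and 108 in NEG, and was 4.19-fold lower in GFP than in MHC (95% interval 2.88 to 6.23). Against NEG, 1 of 16 genes was higher in GFP (Mylk3), 1 was lower (Ppp1r14a) and 14 were within 2-fold. Over all genes 14.1% were higher and 15.0% lower there, 29.1% in all, so the share of this list outside 2-fold was smaller.

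The regulators of the SRF and myocardin programme went both ways. Of 18 cofactors and antagonists, 6 were at least 2-fold higher and 5 lower in GFP than in MHC (median log2 ratio −0.09), where 15.6% of all genes were higher and 16.4% lower. Against NEG, 5 were higher and 7 lower (median −0.23), where 14.1% of all genes were higher and 15.0% lower. Foxo4, a forkhead factor that binds and inhibits myocardin, had a count of 24770.2 in GFP, against 1956 in MHC and 3408 in NEG, 12.7-fold higher in GFP than in MHC (95% interval 12.1 to 13.3). Klf4, a repressor of smooth muscle genes, was 2.46-fold higher in GFP than in MHC (95% interval 2.39 to 2.53) and 1.81-fold higher than in NEG. Gata6 and Tead1, factors that can act on smooth muscle promoters, were 4.32-fold and 2.24-fold higher than in MHC. Fhl2, an SRF-binding cofactor, was 13.5-fold lower in GFP than in MHC (95% interval 12.1 to 15.0), and Mef2c, a partner of myocardin, was 4.61-fold lower than in MHC and 9.80-fold lower than in NEG. The Notch target gene Hey1 had a count of 13.7 in GFP, against 502 in MHC and 478 in NEG. Srf itself, chosen after seeing its values, had a count of 2571 in GFP, against 3660 in MHC and 3381 in NEG, and an overlapping gene with more reads makes that value uncertain.

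**Figure D4:**
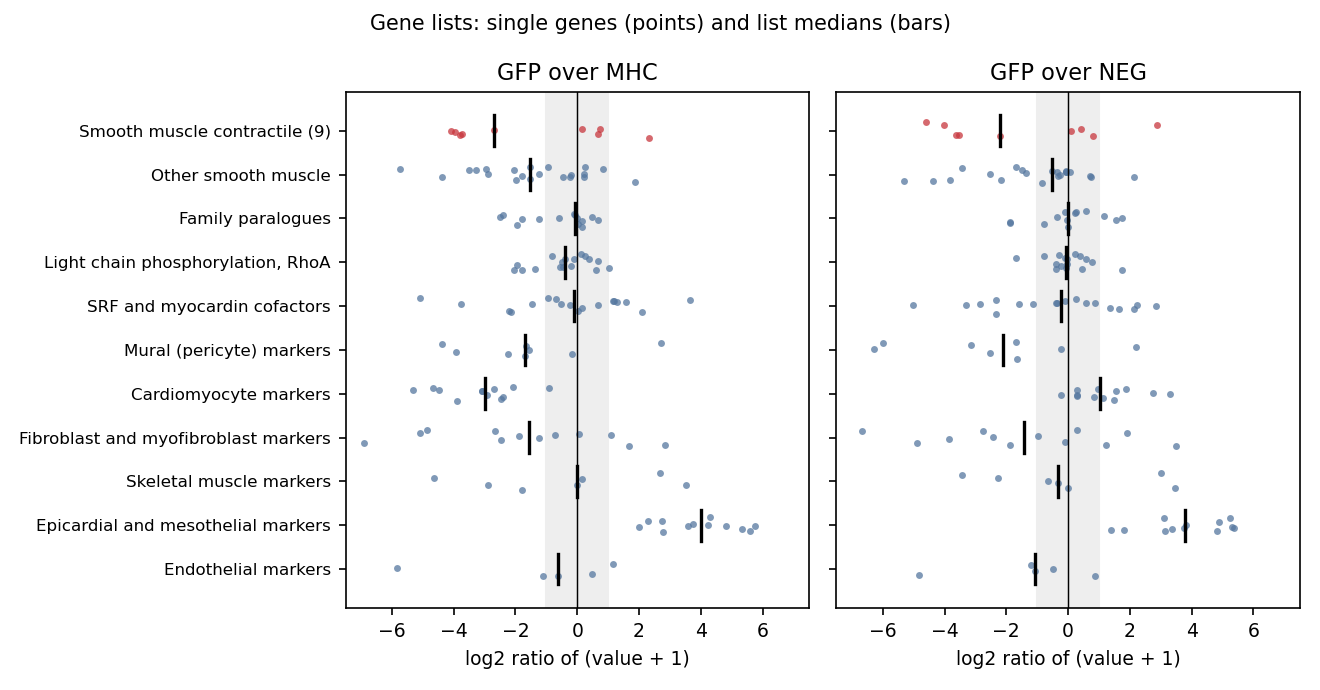
Log2 ratios of normalised count plus 1 for single genes (points) and list medians (black bars) in GFP over MHC (left) and GFP over NEG (right), with the 9 smooth muscle contractile genes in red at the top and ratios within 2-fold in the grey band. The medians of the 9 genes are −2.68 and −2.21, and those of the 12 epicardial and mesothelial markers are 4.00 and 3.79.

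Markers of neighbouring cell types also differed between the populations. For each list below, the shares over all genes with a sufficient count were 16.4% lower and 15.6% higher in GFP than in MHC. In GFP against NEG these shares were 15.0% lower and 14.1% higher. Of 8 mural (pericyte) markers, 6 were at least 2-fold lower and 1 was higher in GFP, against MHC as against NEG. Their summed count was 8461 in GFP, against 17592 in MHC and 43217 in NEG, and none was at 0. Without Cspg4 that sum was 8073 in GFP, against 11624 in MHC and 12979 in NEG. The pericyte gene Rgs5 had 6 reads in GFP, against 133 in MHC and 363 in NEG, and the proteoglycan gene Cspg4 had a count of 388 in GFP, against 5968 in MHC and 30238 in NEG. The adhesion gene Mcam went the other way, at 3463 in GFP, against 526 in MHC and 760 in NEG. Of 12 fibroblast and myofibroblast markers, 7 were lower and 3 higher in GFP than in MHC, and 6 were lower and 3 higher than in NEG, with a summed count of 1873839 in GFP, against 5801992 in MHC and 5726251 in NEG. Periostin (Postn), a gene of activated fibroblasts, was 34.4-fold lower in GFP than in MHC (95% interval 32.6 to 36.4), and Thy1 was 7.22-fold higher. All 12 epicardial and mesothelial markers were higher in GFP than in MHC and NEG, with a summed count of 185034 in GFP, against 7226 in MHC and 7546 in NEG. The part of these cell types in the values of the 9 genes was not tested.

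Muscle and vessel markers gave a mixed picture. Of all genes with a sufficient count, 15.6% were higher and 16.4% lower in GFP than in MHC, 31.9% in all. The shares against NEG were 14.1% higher and 15.0% lower, 29.1% in all. Of the 12 cardiomyocyte markers, 11 were lower in GFP than in MHC, while 6 were higher in GFP than in NEG and the other 6 were within 2-fold. Among the 12, Myh7, Actc1 and Tnnc1 are uncertain because an overlapping gene shares their reads. Of 11 skeletal muscle markers, 4 were below a count of 20 in each library, namely the muscle regulators Myf5, Myod1, Myog and Pax7, of which Myod1 had 3 reads in GFP, against 0 in MHC and 3 in NEG. Of the 7 others, 2 were higher and 3 lower in GFP than in MHC. Ckm and Tnnt3, which were lower, and Acta1, which was within 2-fold, are uncertain through overlapping genes. The summed skeletal count was 22322 in GFP, against 6606 in MHC and 4410.1 in NEG, most of it from the perinatal myosin gene Myh8 in GFP at 19880.0. Without Myh8 the sum was 2442 in GFP, against 4888 in MHC and 2612 in NEG, so GFP was then the lowest. Of 8 endothelial markers, 5 had a sufficient count, with 1 higher and 2 lower in GFP than in MHC and 3 lower than in NEG. Their summed count was 729 in GFP, against 2812 in MHC and 1792 in NEG, most of it in MHC and NEG from the receptor gene Flt1, at 40.2 in GFP, against 2370.2 in MHC and 1174 in NEG. Without Flt1 the sum was 689 in GFP, against 442 in MHC and 618 in NEG, so GFP was then the highest. The defining vascular gene Cdh5 was near 0, at 5.48 in GFP, against 9.12 in MHC and 9.04 in NEG. The part of these cells in the result was not tested either.

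The genes of most like pattern were sought among 10056 protein-coding genes without a read-sharing partner and with a count of 100 or more in a library. Likeness was the distance over the 3 libraries of centred log2 values from the median profile of the 8 members other than Mylk. The nearest were Gadd45g at a distance of 0.02, Pcolce at 0.10, Cxcl12 at 0.13, Matn2 at 0.14 and Grasp at 0.14. The 8 members lay farther from their own median profile, at 0.74 for Cnn1, the nearest, to 2.89 for Cald1, the farthest. The nearest to the profile of Mylk were Rph3al at 0.07, Slc39a4 at 0.08, Cacna1g at 0.08, Tbc1d2 at 0.09 and Fam213a at 0.09. Among the members, Cald1 was closest to Mylk at a distance of 1.54, followed by Smtn at 1.90 and Synpo2 at 1.97. With 3 libraries, many genes share a profile by this measure.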

How the data were processed

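RNA of 3 sorted cell populations, with 1 library each, was read as single reads of 50 bases, per the labels' protocols. The authors deposited a table of signal values, which are read counts scaled by a size factor for each library. The submitters' processing notes list the build mm10 and the tools DESeq2 1.2.10, bedtools 2.17.0, STAR 2.3.0e and FastQC 0.11.2, whose roles are not given in the sources used here. Within a library all values (100%, tolerance 0.01) were multiples of the value of 1 read, 0.914 in GFP, 1.01 in MHC and 1.13 in NEG, which gave back 52109065, 52826956 and 47289405 reads. With 1 library per population no count model leaves residual degrees of freedom, so no gene is called by one.

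For 1015 intronic genes (GENCODE M21) with at least 300 reads, the surrounding gene had no fewer reads in 100%, also for the 577 on the opposite strand, so a count is taken here to cover the whole gene span, introns included, without regard to strand, and overlapping genes to share reads. A gene was called uncertain where an overlapping gene had 25% or more of its mean count. Uncertain genes were kept in the counts and sums of the lists.

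Folds are ratios of deposited values, with exact Clopper-Pearson 95% intervals on the reads, which carry no molecular identifiers. A gene counted as higher or lower at 2-fold on the log2(value + 1) scale where its larger value reached 20, which is a threshold of size only. The members and the 10 gene lists were chosen with earlier results of these data known. All members are named. Of each list, up to 4 genes by mean count, up to 2 at each end of the ratios and the defining markers of a cell type are named, and genes named after their values were seen are said to be. Results for some genes counted in a list are not reported here. The computation was tested on simulated reads. Python 3.11.15, scipy 1.17.1 and edgeR 4.0.16 (for TMM factors only) were used.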

Additional observations from a re-analysis of the deposited data

How the results depend on the processing

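Other pseudocounts (0.1 and 10), scaling by total reads and TMM scaling left the call of each of the 9 genes as it was in all 108 values (27 ratios under 4 settings). The sizes were less stable. Scaling by total reads moved 11 of the 27 ratios outside their counting intervals, and TMM scaling moved 1. In GFP against NEG, total-read scaling took the log2 ratio of Cald1 from 0.82 to 0.98, just short of 2-fold, and that of Synpo2 from 0.10 to 0.26. Scaling by total reads moved the median of all genes by 0.18 in GFP against MHC and by 0.17 in GFP against NEG (log2), and no ratio changed sign among those at least 2-fold. The counts of higher and lower genes were the same with no minimum count, with a minimum of 100 and without Smtn. Smtn was left out as the only one of the 9 genes called uncertain by mean count. Tagln was kept, since Pcsk7 had 11.7% of its mean count, although 110% of its count in GFP. At 4-fold, no gene was higher in MHC than in NEG (0, against 1 at 2-fold), while the counts in both GFP comparisons were the same. Without Smtn the median log2 ratio of GFP over MHC was −3.21 (−2.68 with it). The median of GFP over NEG was −2.88 without it (−2.21 with it). Smtn had log2 ratios of 0.15 and 0.42, above both medians, so leaving it out lowered them. Sums without a list's most abundant gene, and ranks per span, were added after seeing the data. The values of Actg2, Cnn1 and Myocd in GFP rest on 45, 50 and 24 reads, and depth limits them most. No paired analysis was possible because each population has 1 library.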
